A study of Homo sapiens with 12 samples.

Results

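Antisense long noncoding RNAs, transcripts read from the strand opposite a named gene, were described in 2 human lines of cutaneous squamous cell carcinoma, A431 and HSC-1. Everolimus, which is related to rapamycin and blocks the growth kinase complex mTORC1, was given to each line at 100 nM for 72 h, and control cells had DMSO, its solvent. Each of the 4 groups had 3 arrays, 12 in all, and both lines are established cultures with no genetic change made for the experiment. The labels name 2 serum levels for the medium without tying either to a line. They also leave unstated whether arrays of a group were grown apart, so a p-value here measures the spread between arrays, which may be technical. Members were genes whose symbol ends in -AS and a digit, EPB41L4A-AS1 left out. They were further chosen by their measured level, which had to be above the array's own median over all probe sets on at least 3 of the 12 arrays. Of 479 such genes with a named probe set, 220 passed and 259 did not, out of 10613 genes of every kind that passed the same test. The gene table gave 217 of the 220 the biotype lncRNA and the other 3 the biotype antisense RNA.

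An antisense RNA may overlap the exons or introns of the gene it is named for, or it may start beside that gene's promoter and be read away from it, an arrangement called head to head. Many such RNAs are scarce and nuclear and are trimmed by the RNA exosome, and a few are known to act on the neighbouring gene, such as CDKN2B-AS1 (ANRIL), which silences tumour suppressor genes at its locus through Polycomb proteins. The gene on the opposite strand, whose symbol stands before -AS, is called the sense partner here.

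The start regions of 5 antisense RNAs that rose with everolimus in HSC-1 are shown first because they stand for the arrangements met below. All come from the RefSeq table of assembly GRCh38.p14, on the strand of the antisense RNA. For CCDC18-AS1, TPT1-AS1 and RASAL2-AS1 the run is the stretch between the antisense start and the start of a protein coding gene read the other way, and for MYO16-AS1 and FAM13A-AS1, which have no such neighbour, it is the window from 250 bases before to 50 after the start. Capitals mark matches, on either strand, to 4 motifs. These were the ETS core, whose letters are CCGGAAGT, the GC box, GGGCGG on one strand, the CCAAT box, spelled as its name, and the TATA box, searched for as TATAAA.
CCDC18-AS1 to DR1, chr1:93345812-93345906, minus strand: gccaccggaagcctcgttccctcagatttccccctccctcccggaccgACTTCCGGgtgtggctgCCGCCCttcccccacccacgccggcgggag
TPT1-AS1 to TPT1, chr13:45341184-45341344, plus strand: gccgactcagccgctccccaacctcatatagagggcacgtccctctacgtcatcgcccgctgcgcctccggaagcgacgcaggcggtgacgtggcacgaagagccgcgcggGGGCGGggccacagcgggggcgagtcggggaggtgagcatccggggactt
RASAL2-AS1 to RASAL2, chr1:178093994-178094103, minus strand: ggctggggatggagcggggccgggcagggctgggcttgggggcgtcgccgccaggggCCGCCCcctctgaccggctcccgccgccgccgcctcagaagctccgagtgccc
MYO16-AS1, chr13:109167254-109167553, minus strand: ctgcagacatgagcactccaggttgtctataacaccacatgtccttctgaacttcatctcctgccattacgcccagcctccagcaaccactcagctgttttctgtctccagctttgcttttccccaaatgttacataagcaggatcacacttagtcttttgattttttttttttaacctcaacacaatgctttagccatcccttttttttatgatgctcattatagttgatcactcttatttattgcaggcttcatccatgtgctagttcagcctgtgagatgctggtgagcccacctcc
FAM13A-AS1, chr4:88709539-88709838, plus strand: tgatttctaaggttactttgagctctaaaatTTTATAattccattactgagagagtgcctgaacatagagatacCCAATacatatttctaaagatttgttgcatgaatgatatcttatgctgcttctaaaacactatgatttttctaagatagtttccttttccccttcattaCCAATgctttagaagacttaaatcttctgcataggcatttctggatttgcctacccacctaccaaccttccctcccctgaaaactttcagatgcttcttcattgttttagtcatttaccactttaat
The 3 stretches between starts were 95, 161 and 110 bases long with 72.6%, 71.4% and 80.9% G or C, whereas the MYO16-AS1 window had 43.3% and none of the 4 motifs, and the FAM13A-AS1 window had 34.3% with a TATA box and 2 CCAAT boxes.

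The arrays were alike in scale, with medians from 4.34 to 4.39 on the log2 scale, and correlations of 0.989 to 0.992 within groups, 0.987 to 0.991 between treatments of a line and 0.955 to 0.962 between the lines. The keratinocyte markers KRT5, KRT14, KRT16, SFN and DSG3, the 5 of 10 with a named probe set, were above the array median on all 12 arrays. With everolimus DSG3, KRT14 and SFN fell in A431 (log2 differences -0.46, -0.29 and -0.14) and KRT14 and SFN fell in HSC-1 (-0.17 and -0.27). Of markers of other cell types, the fibroblast gene DCN, the leukocyte gene LYZ, the melanocyte genes MLANA and TYR and the endothelial genes PECAM1, VWF and KDR were above the median on 0 arrays, PMEL on 1, and MITF, SOX10 and CD68 on all 12. CD68 fell in both lines (-0.20 in A431 and -0.17 in HSC-1). LUM, a fibroblast gene, was above the median on the 6 A431 arrays alone. The part of these marker changes in the antisense results was not tested. In RNA from whole cultures, fewer cells with a transcript and less of it per cell cannot be told apart.

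Antisense RNAs lay low on the arrays. Their means over the 12 arrays ran from 4.08 to 7.18 log2 units with a median of 5.01, against a median of 6.18 over all genes tested. Above the array median on every array were 149 members. The 7 members that passed on exactly 3 arrays (UPK1A-AS1, PRKG1-AS1, IGFBP7-AS1, NCAM1-AS1, CFAP418-AS1, RAB11B-AS1 and ATP2B1-AS1) had means from 4.08 to 4.30, and the 11 genes left out with 2 arrays had means from 3.84 to 4.29, so the ranges on either side of the boundary overlapped. The standard error of a difference was larger for antisense RNAs (median 0.119) than over all genes (0.0937) and was like that of other lncRNAs (0.118). Among the members, 14 had several named probe sets, and the one with the highest mean was used. A sense partner with a named probe set was tested for 137 members. It had no named probe set for 64, was below the level filter for 17, and 2 symbols (HOXD-AS2 and KRTAP5-AS1) matched no gene.

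FGD5-AS1, PCBP3-AS1, PITPNA-AS1 and ASB16-AS1 had the highest means of the 220. FGD5-AS1 read 7.01, 7.06 and 7.04 in A431 with DMSO, 7.06, 7.10 and 7.16 in A431 with everolimus, 7.24, 7.22 and 7.32 in HSC-1 with DMSO and 7.36, 7.30 and 7.26 in HSC-1 with everolimus. The 6 HSC-1 arrays were all above the 6 A431 arrays, and in neither line did the treatment groups separate. PCBP3-AS1 read 6.93, 7.06 and 7.20, then 7.16, 7.14 and 7.15, in A431 with DMSO and everolimus, and 7.13, 7.22 and 6.95, then 7.10, 7.13 and 7.13, in HSC-1. Within each line the treatment groups overlapped. PITPNA-AS1 read 6.64, 6.65 and 6.59, then 6.60, 6.57 and 6.59, in A431, and 7.22, 7.35 and 7.43, then 7.44, 7.39 and 7.55, in HSC-1. It was the one of these 4 that set the lines apart most, by 0.71 ± 0.07 log2 in DMSO (SE; adjusted p = 2.13e-08).

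In A431, 1 antisense RNA passed the threshold with everolimus, and it fell. SH3PXD2A-AS1 (probe set 16708880) is antisense to SH3PXD2A, which encodes the scaffold TKS5 of invadopodia, the protrusions with which cells break down matrix. It read 5.69, 5.66 and 5.83 with DMSO and 5.24, 5.34 and 5.13 with everolimus. The everolimus arrays were all below the DMSO arrays, by -0.49 ± 0.12 log2 (SE), 1.41-fold, with an adjusted p of 0.0184 in limma's moderated test over all genes. The sense gene fell too, from 6.92, 7.19 and 6.92 to 6.62, 6.75 and 6.77, again without overlap (-0.30 ± 0.08 log2, 1.23-fold, adjusted p = 0.0211). In HSC-1 the antisense RNA read 4.60, 4.90 and 4.84 with DMSO and 5.05, 4.71 and 4.66 with everolimus, overlapping groups with a difference of 0.03 ± 0.12 log2 (adjusted p = 0.904). Over all genes, 6.73% were called in A431, and 0.455% of the antisense RNAs were. The median difference of the 220 was 0.02 log2 against -0.0038 over all genes, and no antisense RNA reached 1.5-fold. Few genes of any kind did: of 10613, 9 were called higher and 57 lower by more than 1.5-fold. The antisense call was lost without A431 DMSO replicate 3 (adjusted p = 0.0808), everolimus replicate 1 (0.0566) or everolimus replicate 3 (0.0695), so the count is then 0. The call for SH3PXD2A was lost without A431 DMSO replicate 2 (0.130) or everolimus replicate 1 (0.106), and without the intensity trend (0.0766).

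In HSC-1, 20 antisense RNAs passed the threshold, and 17 of them rose while 3 fell. Led by CCDC18-AS1, RNF217-AS1, FAM13A-AS1, MYO16-AS1 and TAPT1-AS1, the rises ran from 0.22 to 0.68 log2, and CCDC18-AS1 and RNF217-AS1 passed 1.5-fold. Over all 10613 genes, 18.6% were called in this comparison, 7.34% higher and 11.3% lower, against 9.09%, 7.73% and 1.36% of the 220 antisense RNAs. The share that rose was therefore near that of all genes, and the share that fell was smaller. By more than 1.5-fold, 67 of all genes were called higher and 72 lower. Of the 220, 147 (66.8%) had a difference above 0, against 44.9% of all genes and 60.4% of other lncRNAs. The median of the 220 was 0.06 log2 against -0.02 over all genes. The 414 other tested lncRNAs stood close to them, with 35 higher and 15 lower (8.45% and 3.62%) and a median of 0.05 log2. The count of antisense calls rested in part on single arrays: it was 12 without HSC-1 DMSO replicate 1 and 9 without HSC-1 everolimus replicate 1.

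**Figure D1:**
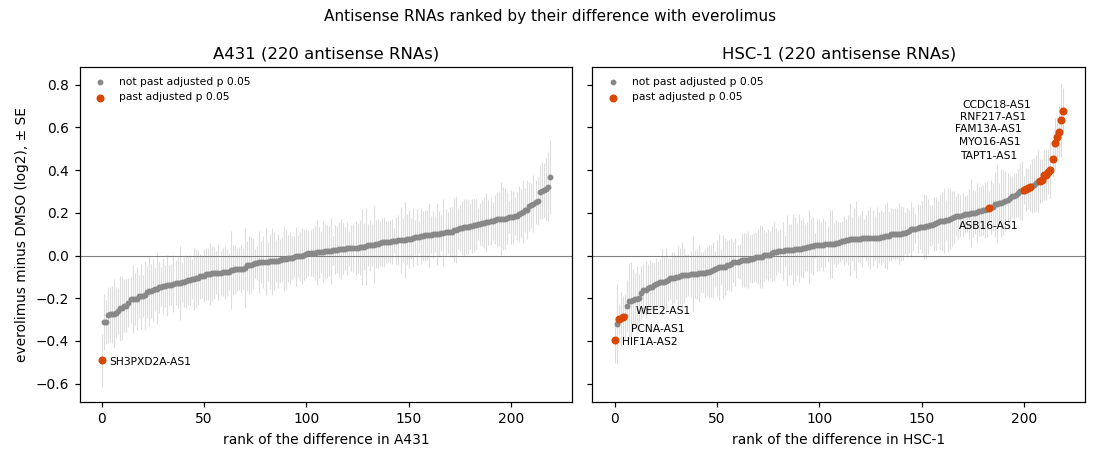
The 220 antisense RNAs ranked by their log2 difference between everolimus and DMSO, for A431 (left) and HSC-1 (right). Each point is 1 gene, grey bars are the standard error of the fit, and orange points passed an adjusted p of 0.05. SH3PXD2A-AS1 is the single orange point in A431, and in HSC-1 17 orange points lie above 0 and 3 below.

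Both strands rose at 2 loci in HSC-1. CCDC18-AS1 (probe set 16689678) had the largest difference of all 220. It read 5.78, 6.04 and 5.73 with DMSO and 6.75, 6.56 and 6.27 with everolimus. Every everolimus array was above every DMSO array (0.68 ± 0.11 log2, 1.60-fold, adjusted p = 0.000201), and the call held in all 22 alternatives. In A431 it read 6.76, 6.85 and 6.62 with DMSO and 6.79, 6.81 and 6.74 with everolimus, so that everolimus brought HSC-1 to 6.53 ± 0.24 (SD, n = 3) against 6.75 ± 0.12 in untreated A431. CCDC18, its namesake, codes for a coiled-coil protein. That gene read 7.46, 7.38 and 7.39 with DMSO and 7.72, 7.62 and 7.62 with everolimus in HSC-1 (0.24 ± 0.05 log2, adjusted p = 0.00392). It also rose in A431, from 7.44, 7.40 and 7.49 to 7.65, 7.71 and 7.62 (0.22 ± 0.05 log2, adjusted p = 0.0190), with no overlap in either line. The A431 call of CCDC18 was lost without A431 DMSO replicate 1 (0.0642) or 2 (0.0916), without A431 everolimus replicate 1 (0.0529) or 2 (0.0931), and without the intensity trend (0.0554). The start of CCDC18-AS1 lies 165095 bases from that of CCDC18 and 96 bases from that of DR1, which codes for a repressor of RNA polymerase II initiation and had no named probe set here.

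RNF217-AS1 (probe set 17023298) is named for RNF217, which codes for a RING-type ubiquitin ligase, and starts 482 bases from its start on the opposite strand. The antisense RNA read 5.10, 4.68 and 5.37 with DMSO and 5.77, 5.68 and 5.61 with everolimus in HSC-1. The groups did not overlap, although the DMSO arrays were spread (0.64 ± 0.17 log2, 1.55-fold, adjusted p = 0.0146). RNF217 itself read 6.61, 6.59 and 6.57 with DMSO and 7.03, 7.08 and 6.91 with everolimus (0.41 ± 0.11 log2, 1.33-fold, adjusted p = 0.0107). In A431 neither moved past the threshold, with differences of -0.13 ± 0.17 log2 for the antisense RNA and 0.00 ± 0.11 log2 for the gene. The antisense call was lost without HSC-1 DMSO replicate 2 (adjusted p = 0.0929) or everolimus replicate 1 (0.0526), and the call for RNF217 without HSC-1 everolimus replicate 2 (0.0514).

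Several strong rises came without a partner to set beside them. FAM13A-AS1 (probe set 16968834) overlaps FAM13A, which had no named probe set. In HSC-1 it read 4.37, 4.32 and 4.40 with DMSO and 4.94, 4.96 and 4.93 with everolimus. The everolimus arrays stood together above the DMSO arrays (0.58 ± 0.12 log2, adjusted p = 0.00197), and the call held in all 22 alternatives. In A431 the values were 4.67, 4.63 and 4.96 with DMSO and 4.56, 4.79 and 4.48 with everolimus, which overlapped. MYO16-AS1 (probe set 16780909) lies across MYO16, an unconventional myosin gene whose own probe set was above the median on 0 arrays. MYO16-AS1 read 5.16, 5.31 and 5.34 with DMSO and 5.82, 5.93 and 5.73 with everolimus in HSC-1. The difference was 0.55 ± 0.10 log2, 1.47-fold, with an adjusted p of 0.000489 and no overlap, and it was called in all 22 alternatives. A431 read 5.68, 5.74 and 5.73 with DMSO and 5.74, 5.79 and 5.53 with everolimus for this RNA, a level that HSC-1 reached only with the drug (5.83 ± 0.10 against 5.72 ± 0.04 in untreated A431; SD, n = 3). GABPB1-AS1 (probe set 16800980) overlaps GABPB1, whose protein pairs with the ETS factor GABPA and had no named probe set. It read 5.98, 5.95 and 6.08 with DMSO and 6.38, 6.45 and 6.54 with everolimus in HSC-1. That difference of 0.45 ± 0.09 log2 (1.37-fold, adjusted p = 0.000996) held in all 22 alternatives, while A431 read 5.92, 5.88 and 5.79 with DMSO and 5.93, 5.72 and 5.72 with everolimus.

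PSMA3-AS1 (probe set 16793438), antisense to a gene of the 20S proteasome that had no named probe set, read 6.60, 6.58 and 6.51 with DMSO and 6.94, 6.85 and 6.83 with everolimus in HSC-1. The 3 everolimus arrays were all higher (0.31 ± 0.07 log2, adjusted p = 0.00334), again in all 22 alternatives. In A431 it read 6.88, 6.85 and 6.96, then 6.88, 6.85 and 7.03, and the groups overlapped. TPT1-AS1 (probe set 16774515) starts 162 bases from TPT1, which codes for the translationally controlled tumour protein and had no named probe set. It read 5.89, 6.12 and 6.18 with DMSO and 6.15, 6.51 and 6.67 with everolimus in HSC-1. The groups overlapped, since the lowest everolimus array was under the highest DMSO array (0.38 ± 0.12 log2, adjusted p = 0.0280). Its call was lost without HSC-1 DMSO replicate 1 (0.142), everolimus replicate 2 (0.100) or replicate 3 (0.138), without the intensity trend (0.0599) and with the 6 HSC-1 arrays alone (0.0520). A431 read 5.93, 6.20 and 6.03 with DMSO and 6.11, 6.14 and 6.11 with everolimus. NUTM2A-AS1 (probe set 16716267), whose partner had no named probe set, read 6.24, 6.26 and 6.11 with DMSO and 6.75, 6.32 and 6.50 with everolimus in HSC-1, without overlap but close to the threshold (0.32 ± 0.11 log2, adjusted p = 0.0486). In A431 it read 6.48, 6.34 and 6.17, then 6.26, 6.46 and 6.57. Its call was lost in 13 of 22 alternatives, with adjusted p up to 0.238. Among these were the fits without A431 DMSO replicate 2 (0.0603), A431 everolimus replicate 2 (0.0567), HSC-1 DMSO replicates 1, 2 and 3 (0.0906, 0.0707 and 0.158) and HSC-1 everolimus replicates 1 and 3 (0.238 and 0.0793).

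For 9 of the 12 called antisense RNAs with a tested partner, the partner was not called in HSC-1, and for 3 it was. The share called there was 22.6% over all 137 tested partners and 18.6% over all genes, so most partners of any antisense RNA were not called. TAPT1-AS1 (probe set 16965286) rose while TAPT1, a gene of ciliary basal bodies, did not pass. The antisense RNA read 5.50, 5.42 and 5.31 with DMSO and 5.92, 6.13 and 5.76 with everolimus, with no overlap (0.53 ± 0.12 log2, 1.44-fold, adjusted p = 0.00388), in all 22 alternatives. TAPT1 read 6.99, 6.96 and 7.02 with DMSO and 6.92, 6.90 and 6.74 with everolimus (-0.14 ± 0.07 log2, adjusted p = 0.196). All 6 A431 arrays of TAPT1-AS1, at 4.25, 4.0001 and 4.21 with DMSO and 4.33, 4.18 and 4.28 with everolimus, were under their array's median, so that it entered through HSC-1 alone. TAPT1 in A431 read 5.96, 5.95 and 5.88, then 6.01, 5.97 and 6.05.

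RASAL2-AS1 (probe set 16696796) starts 111 bases from RASAL2, which codes for a Ras GTPase-activating protein. In HSC-1 it read 6.18, 6.33 and 6.26 with DMSO and 6.74, 6.77 and 6.40 with everolimus, all higher (0.38 ± 0.12 log2, adjusted p = 0.0330). RASAL2 read 8.83, 8.73 and 8.84, then 9.06, 9.001 and 8.82, which overlapped (0.16 ± 0.07 log2, adjusted p = 0.119). In A431 RASAL2-AS1 read 4.91, 5.27 and 5.14, then 5.39, 5.06 and 5.34, and RASAL2 read 8.23, 8.36 and 8.32, then 8.29, 8.52 and 8.29. The RASAL2-AS1 call was lost without HSC-1 DMSO replicate 1 (0.120) or 3 (0.0744), without HSC-1 everolimus replicate 1 (0.119) or 2 (0.144), and without the intensity trend (0.0575). RASAL2, on the other hand, was called without HSC-1 everolimus replicate 3 (0.0234) and with array weights (0.0374). ALOX12-AS1 (probe set 16840448) overlaps ALOX12, the platelet-type 12-lipoxygenase gene. It read 5.77, 5.63 and 6.04 with DMSO and 6.48, 6.13 and 6.03 with everolimus in HSC-1, and the groups overlapped (0.40 ± 0.13 log2, adjusted p = 0.0391). ALOX12 read 4.21, 4.50 and 3.56, then 4.14, 3.66 and 4.51, with 1 array in each group above the array median. In A431 the antisense RNA read 4.97, 5.14 and 4.77, then 4.95, 4.97 and 5.01, and ALOX12 read 5.996, 5.73 and 5.75, then 5.88, 5.88 and 6.06. The ALOX12-AS1 call was lost in 8 of 22 alternatives, among them without HSC-1 DMSO replicate 1 (0.118) or 2 (0.170) and without HSC-1 everolimus replicate 1 (0.203) or 2 (0.0593).

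SH3BP5-AS1 (probe set 16938092) is named for SH3BP5, an exchange factor for the GTPase RAB11. It read 4.81, 4.58 and 4.59 with DMSO and 5.02, 5.02 and 5.13 with everolimus in HSC-1, without overlap (0.39 ± 0.11 log2, adjusted p = 0.0143). SH3BP5 read 5.33, 5.20 and 5.18, then 4.92, 5.04 and 5.18, a difference the other way that did not pass (-0.19 ± 0.10 log2, adjusted p = 0.238). In A431 the antisense RNA read 4.68, 4.78 and 4.75, then 4.67, 4.77 and 4.80, and SH3BP5 read 5.13, 5.23 and 5.16, then 4.95, 4.96 and 5.10. The SH3BP5-AS1 call was lost without HSC-1 DMSO replicate 2 (0.0619) or 3 (0.0548) or everolimus replicate 3 (0.0512). CBR3-AS1 (probe set 16925442) is named for CBR3, a carbonyl reductase gene, and starts 516 bases from DOP1B. The antisense RNA read 6.23, 6.20 and 6.11 with DMSO and 6.63, 6.65 and 6.32 with everolimus in HSC-1 (0.35 ± 0.10 log2, adjusted p = 0.0185). CBR3 read 5.49, 5.52 and 5.18, then 5.23, 5.24 and 5.28, and overlapped. In A431 CBR3-AS1 read 6.35, 6.17 and 6.33, then 5.996, 6.30 and 6.26, and CBR3 read 6.15, 5.92 and 5.96, then 5.55, 5.38 and 5.87, all lower but short of the threshold (-0.41 ± 0.12 log2, adjusted p = 0.0534). Without A431 everolimus replicate 3 or HSC-1 DMSO replicate 3, CBR3 was called in A431 (0.0116 and 0.0399). It was called there too with the 60th percentile filter (0.0474), array weights (0.0288), quantile normalization repeated (0.0431) and arrays centred on their medians (0.0480). The CBR3-AS1 call in HSC-1 was lost without HSC-1 DMSO replicate 3 (0.0709) or everolimus replicates 1 (0.0747) or 2 (0.0943).

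MYLK-AS1 (probe set 16944784) overlaps MYLK, the gene of smooth muscle myosin light chain kinase. It read 5.62, 5.72 and 5.72 with DMSO and 6.004, 6.17 and 5.82 with everolimus in HSC-1, all higher (0.31 ± 0.09 log2, adjusted p = 0.0262). MYLK went from 5.82, 5.85 and 5.77 to 5.74, 5.60 and 5.56, all lower but not past the threshold (-0.18 ± 0.13 log2, adjusted p = 0.400). In A431 MYLK-AS1 read 6.17, 6.33 and 6.36, then 6.23, 6.07 and 6.15, and MYLK read 4.64, 4.15 and 4.71, then 4.76, 5.05 and 4.89, all higher but short of the threshold (0.40 ± 0.13 log2, adjusted p = 0.0799). Without A431 DMSO replicate 3, MYLK was called in A431 (0.0441). The MYLK-AS1 call was lost without HSC-1 DMSO replicate 1 (0.0954) or everolimus replicates 1 (0.0596) or 2 (0.149), and with the 6 HSC-1 arrays alone (0.0522). TMEM44-AS1 (probe set 16949785) read 5.82, 5.83 and 5.78 with DMSO and 6.27, 6.09 and 6.11 with everolimus in HSC-1, without overlap (0.35 ± 0.10 log2, adjusted p = 0.0223). Its partner, a membrane protein gene, read 5.69, 5.53 and 5.22, then 5.50, 5.35 and 5.47, and overlapped. In A431 the antisense RNA read 6.02, 6.22 and 6.34, then 6.26, 5.96 and 6.31, and TMEM44 read 6.24, 6.40 and 6.36, then 6.38, 6.15 and 6.38. Leaving out HSC-1 DMSO replicate 1 (0.0577) or 3 (0.0637) or everolimus replicate 1 (0.0925) ended the TMEM44-AS1 call.

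ZBTB11-AS1 (probe set 16943429) starts 702 bases from ZBTB11, a zinc finger transcription factor gene. It read 5.36, 5.43 and 5.16 with DMSO and 5.68, 5.63 and 5.57 with everolimus in HSC-1, all higher (0.31 ± 0.10 log2, adjusted p = 0.0382). ZBTB11 read 7.51, 7.57 and 7.52, then 7.69, 7.60 and 7.45, and overlapped. In A431 the antisense RNA read 5.91, 5.61 and 5.76, then 5.73, 5.70 and 5.67, and ZBTB11 read 7.59, 7.65 and 7.51, then 7.74, 7.64 and 7.69. The ZBTB11-AS1 call was lost without HSC-1 DMSO replicate 1 (0.0673) or 3 (0.170) or everolimus replicate 1 (0.108) or 2 (0.0898), and with the 6 HSC-1 arrays alone (0.0602). ASB16-AS1 (probe set 16845567), with the smallest rise, read 7.07, 6.87 and 6.91 with DMSO and 7.28, 7.19 and 7.05 with everolimus in HSC-1, overlapping groups (0.22 ± 0.08 log2, adjusted p = 0.0455). In A431 it read 6.82, 6.71 and 6.67, then 6.90, 6.86 and 6.98, all higher but not past the threshold (0.18 ± 0.08 log2, adjusted p = 0.189). Its partner ASB16, a SOCS box gene, read 5.40, 5.68 and 5.59, then 5.45, 5.49 and 5.44, in HSC-1 and 5.60, 5.52 and 5.60, then 5.80, 5.51 and 5.44, in A431. The ASB16-AS1 call was lost in 11 of 22 alternatives, among them without A431 DMSO replicate 2 (0.0557), A431 everolimus replicates 1 (0.0551) or 2 (0.0503), HSC-1 DMSO replicates 2 (0.176) or 3 (0.130), and HSC-1 everolimus replicates 1 (0.183) or 2 (0.122).

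The 3 that fell in HSC-1 were HIF1A-AS2, PCNA-AS1 and WEE2-AS1. HIF1A-AS2 (probe set 16793678) overlaps HIF1A, the gene of the oxygen-regulated factor, which had no named probe set. It read 4.97, 4.82 and 4.89 with DMSO and 4.41, 4.53 and 4.56 with everolimus, without overlap (-0.40 ± 0.11 log2, 1.32-fold, adjusted p = 0.0141), and in A431 4.42, 4.57 and 4.57, then 4.43, 4.39 and 4.45. Its call was lost without HSC-1 DMSO replicate 1 (0.0630) or everolimus replicate 1 (0.0549). PCNA-AS1 (probe set 16911149) overlaps PCNA, the sliding clamp of DNA replication. It read 6.70, 6.97 and 6.74 with DMSO and 6.53, 6.44 and 6.55 with everolimus in HSC-1 (-0.30 ± 0.07 log2, adjusted p = 0.00823). PCNA fell with it, from 9.98, 9.99 and 9.98 to 9.75, 9.78 and 9.63 (-0.27 ± 0.04 log2, adjusted p = 0.000303), and neither pair of groups overlapped. In A431 the antisense RNA read 6.84, 6.81 and 6.74, then 6.98, 6.97 and 6.88, all higher but not past the threshold, and PCNA read 10.07, 10.10 and 10.04, then 9.93, 9.95 and 10.07. The PCNA-AS1 call was lost without HSC-1 DMSO replicate 2 (0.0612). WEE2-AS1 (probe set 17052392) read 5.94, 5.77 and 6.17 with DMSO and 5.70, 5.70 and 5.62 with everolimus in HSC-1 (-0.29 ± 0.10 log2, adjusted p = 0.0490) and 6.06, 6.05 and 6.03, then 6.13, 5.89 and 6.05, in A431. WEE2, an oocyte kinase gene, was above the median on 0 arrays. The WEE2-AS1 call was lost in 17 of 22 alternatives, among them without any single array other than A431 everolimus replicate 2 and HSC-1 DMSO replicate 2, at adjusted p from 0.0512 to 0.247.

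**Figure D2:**
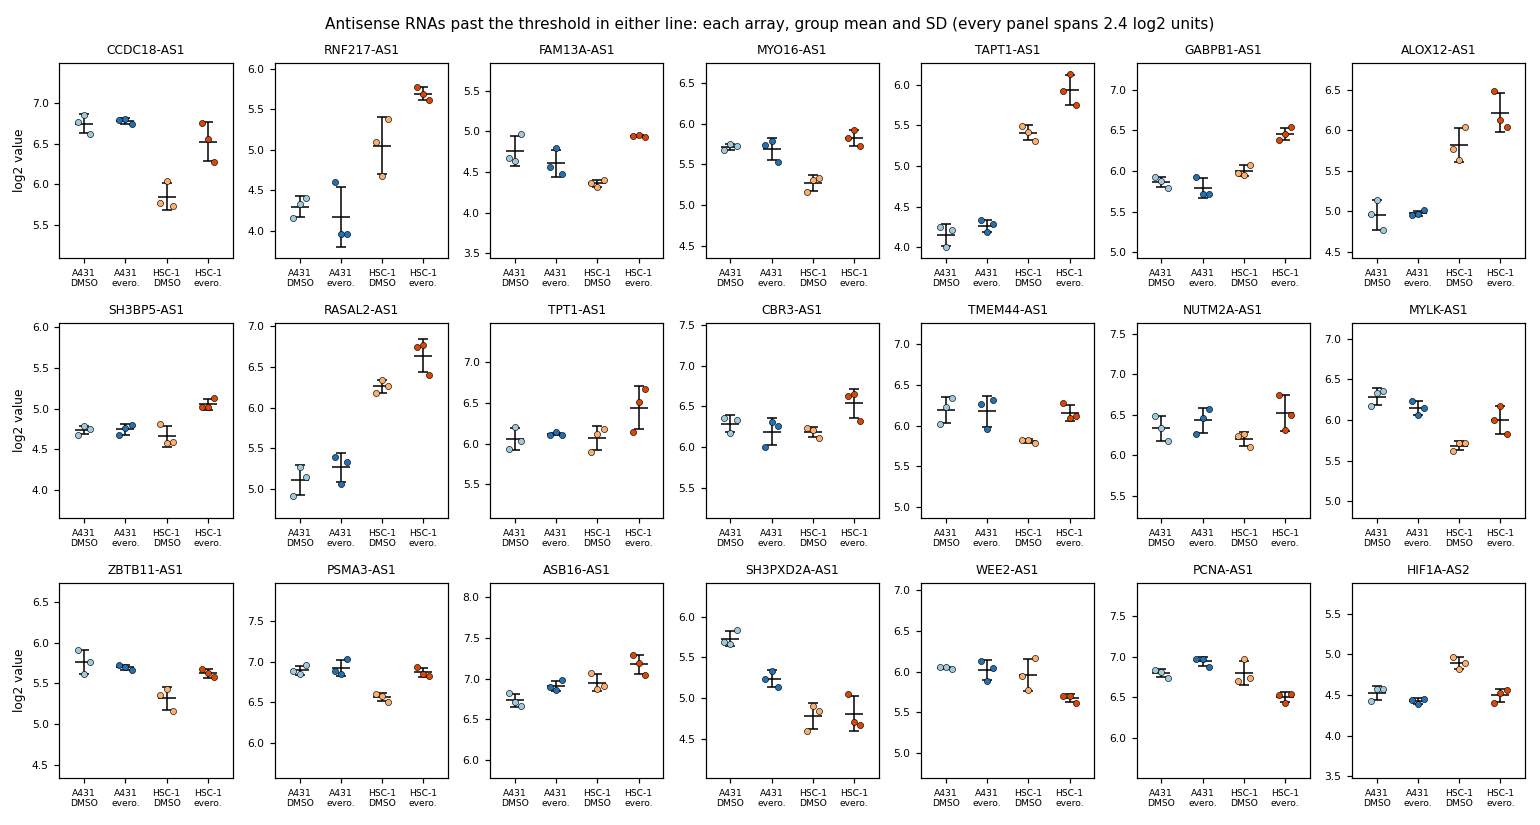
Log2 values of the 21 antisense RNAs past the threshold in either line, on each of the 12 arrays. Points are arrays, horizontal marks are group means and bars are the SD of 3 arrays; every panel spans 2.4 log2 units but is centred on its own values. In 17 panels the HSC-1 everolimus mean is higher than the HSC-1 DMSO mean by 0.22 to 0.68, and SH3PXD2A-AS1 is the panel in which A431 falls past the threshold.

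The response itself was compared between the lines as the response of HSC-1 minus that of A431, in which 10.5% of all genes and 3.18% of the antisense RNAs were called. CCDC18-AS1, FAM13A-AS1, GABPB1-AS1, MYO16-AS1, CBR3-AS1 and MYLK-AS1 responded more upward in HSC-1, and PCNA-AS1 more downward. FAM13A-AS1 had a difference in response of 0.73 ± 0.17 log2 (SE, adjusted p = 0.00866), CCDC18-AS1 of 0.64 ± 0.15 (0.00978), MYO16-AS1 of 0.59 ± 0.14 (0.00918) and GABPB1-AS1 of 0.53 ± 0.12 (0.00816). PCNA-AS1 had one of -0.45 ± 0.11 (0.00989). Calls for these 5 held in all 21 alternatives of this contrast. CBR3-AS1 (0.45 ± 0.14, adjusted p = 0.0491) and MYLK-AS1 (0.45 ± 0.13, adjusted p = 0.0374) lost theirs in 12 and 11 of the 21, with adjusted p up to 0.132 and 0.108. CBR3-AS1 was lost without any of 8 single arrays (A431 DMSO 1 or 3, A431 everolimus 1, HSC-1 DMSO 1, 2 or 3, HSC-1 everolimus 1 or 2), and MYLK-AS1 without any of 9 (A431 DMSO 2 or 3, A431 everolimus 2 or 3, HSC-1 DMSO 1, 2 or 3, HSC-1 everolimus 1 or 2). The other 13 antisense RNAs called in HSC-1, and SH3PXD2A-AS1, were not shown to respond differently in the 2 lines. SH3PXD2A-AS1 came close (0.52 ± 0.17, adjusted p = 0.0612), and was called without HSC-1 everolimus replicate 3 (0.0414). RNF217-AS1 had the largest estimate of all (0.76 ± 0.24, adjusted p = 0.0545) and was called without A431 everolimus replicate 1 (0.00893) or HSC-1 DMSO replicate 3 (0.0221), PSMA3-AS1 without A431 everolimus replicate 3 (0.0339), TPT1-AS1 without HSC-1 everolimus replicate 1 (0.0458) and SH3BP5-AS1 without the intensity trend (0.0463). Among the partners of called antisense RNAs, SH3PXD2A differed between the lines by 0.47 ± 0.11 log2 (adjusted p = 0.00763). MYLK missed the threshold at -0.58 ± 0.19 log2 (adjusted p = 0.0533), the opposite sign to MYLK-AS1. It was called in 7 of 21 alternatives, among them without A431 DMSO replicate 1 (0.0463) or 3 (0.0289) or A431 everolimus replicate 1 (0.0477). RNF217 missed the threshold too (0.41 ± 0.15 log2, adjusted p = 0.0954) and was called without A431 DMSO replicate 3 (0.0105) and with array weights (0.0295), as PCNA was (-0.18 ± 0.06 log2, adjusted p = 0.0756) with quantile normalization repeated (0.0255).

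Partners and antisense RNAs were mostly called apart, but a strand that was not called may still have changed. The median standard error was 0.119 for antisense RNAs and 0.0889 for partners. Of 137 tested partners, 7 were called in A431 (3 higher and 4 lower, 5.11%) and 31 in HSC-1 (17 higher and 14 lower, 22.6%), against 6.73% and 18.6% of all genes. Both strands were called for SH3PXD2A in A431 and for CCDC18, RNF217 and PCNA in HSC-1. All 4 pairs moved the same way, and 0 pairs in either line had both strands called in opposite directions. In HSC-1, 28 partners were called where the antisense RNA was not, and 9 antisense RNAs where the partner was not. Partners with large changes, picked after their values were seen, included LOXL2, a collagen crosslinking oxidase gene, which fell in HSC-1 by 0.66 on the log2 scale (adjusted p = 0.000162) while LOXL2-AS1 was at -0.32 (0.272). GAS6, the ligand of the TAM receptors, rose there (0.44 log2, adjusted p = 7.3e-05), with GAS6-AS1 at 0.06 (0.710). In A431 MELTF, the melanotransferrin gene, rose (0.71 log2, adjusted p = 1e-06) with MELTF-AS1 at -0.01 (0.976), and RAET1E, the gene of an NKG2D ligand, fell by 0.91 on the log2 scale (adjusted p = 4e-06) with RAET1E-AS1 at 0.21 (0.501). Across the 137 pairs the differences of antisense RNA and partner had a Pearson correlation of 0.04 in A431 and 0.20 in HSC-1. The latter was 0.13 without the pairs of the 2 antisense RNAs farthest from the antisense median. Signs were shared by 73 pairs (53.3%) and 71 pairs (51.8%). These correlations are descriptions across genes measured on the same arrays, and genes are not independent replicates.

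**Figure D3:**
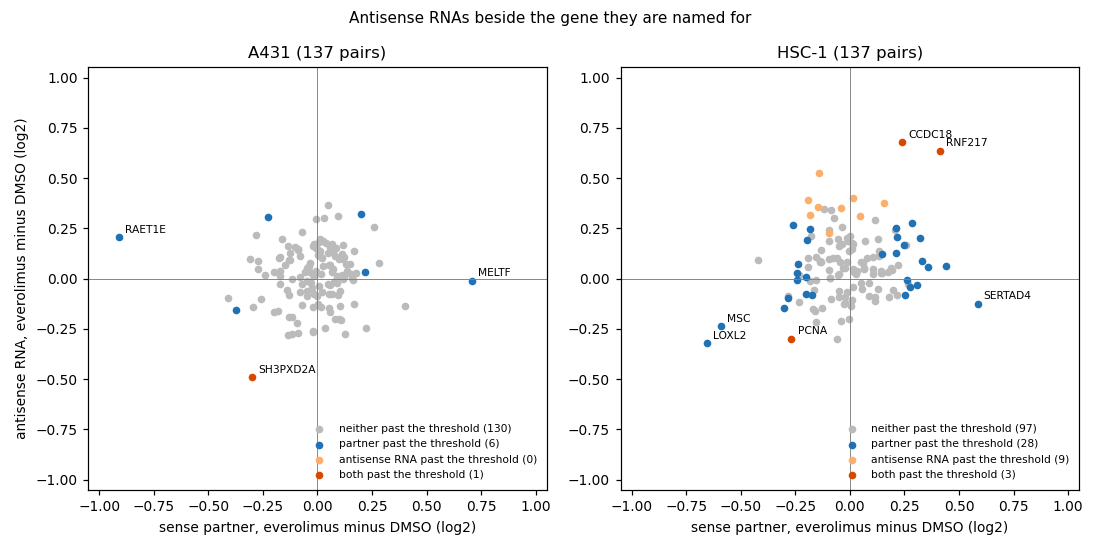
Log2 difference between everolimus and DMSO of 137 antisense RNAs (vertical axis) against that of the gene each is named for (horizontal axis), in A431 (left) and HSC-1 (right). Each point is a pair, coloured by which strand passed an adjusted p of 0.05. In HSC-1, 28 partners passed without their antisense RNA and 9 antisense RNAs without their partner. In 3 pairs (CCDC18, RNF217 and PCNA) both passed, in the same direction.

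The larger differences lay between the lines. In DMSO, 84 antisense RNAs differed between HSC-1 and A431, 38 higher and 46 lower in HSC-1 (38.2%), against 59.4% of all genes (29.2% higher and 30.2% lower). By at least 1.5-fold, 35 of the 220 differed, while of 10613 genes 1470 were called higher and 1347 lower by more than that. The level filter bears on the count of antisense calls. The 7 members below the median on all A431 arrays gave 5 calls higher in HSC-1, and the 3 below it on all HSC-1 arrays gave 3 calls lower, as they had to enter through the other line. Among the 210 that were above it on at least 1 array of each line, 33 were higher and 43 lower in HSC-1. These 210 still hold members, such as EGFR-AS1, that passed the filter only with the arrays of the line where they were high.

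AFAP1-AS1 and FOXD2-AS1 were lower in HSC-1 by the widest margins, and EGFR-AS1 and CDKN2B-AS1 were higher. AFAP1-AS1, whose partner encodes an actin filament crosslinker, read 6.52, 6.50 and 6.51 in A431 with DMSO and 4.66, 3.98 and 4.72 in HSC-1 with DMSO, a difference of -2.06 ± 0.16 log2 (4.16-fold, adjusted p = 1.31e-09). With everolimus it read 6.70, 6.71 and 6.48 in A431 and 4.37, 4.14 and 4.58 in HSC-1, so the lines stayed apart and the treatments overlapped. AFAP1 ran the opposite way, at 5.64, 5.43 and 5.25 in A431 and 6.75, 6.64 and 6.56 in HSC-1 with DMSO (1.21 ± 0.10 log2, adjusted p = 2.08e-09). FOXD2-AS1 read 7.63, 7.41 and 7.55 in A431 and 5.41, 5.81 and 5.81 in HSC-1 with DMSO, and 7.38, 7.29 and 7.36, then 5.65, 5.63 and 5.51, with everolimus (-1.86 ± 0.10 log2 in DMSO, 3.62-fold, adjusted p = 4.56e-12). FOXD2, a forkhead factor gene, was lower in HSC-1 too (-1.15 ± 0.15 log2). The everolimus arrays of FOXD2-AS1 in A431 were all below the DMSO arrays, without passing the threshold (-0.19 ± 0.10 log2, adjusted p = 0.301).

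EGFR-AS1 is antisense to the epidermal growth factor receptor gene. It read 4.13, 4.06 and 4.24 in A431 and 5.78, 5.55 and 5.71 in HSC-1 with DMSO, and 4.55, 4.36 and 4.04, then 5.77, 5.77 and 6.02, with everolimus (1.54 ± 0.13 log2 in DMSO, 2.90-fold). Its A431 arrays with DMSO were all under the array median. The filter of 3 arrays was met only with the HSC-1 arrays, where EGFR-AS1 was high, so its line difference is a description. EGFR was higher in HSC-1 as well, at 12.54, 12.54 and 12.49 against 11.67, 11.63 and 11.64 (0.88 ± 0.03 log2). Both strands were therefore higher in HSC-1, and neither differed with everolimus past the threshold in either line. CDKN2B-AS1 read 3.35, 3.37 and 3.43 in A431 and 4.71, 4.92 and 5.06 in HSC-1 with DMSO, and 3.20, 3.04 and 3.21, then 5.26, 5.14 and 4.98, with everolimus (1.52 log2 in DMSO). All its A431 arrays were under the array median, so it entered through HSC-1 alone, had to be higher there, and its difference is a description. CDKN2B had no named probe set, and CDKN2A, which starts 533 bases from CDKN2B-AS1 on the other strand, was higher in HSC-1 by 2.43 log2.

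Pairs in which both strands differed between the lines mostly ran the same way. Of 42 such pairs, 33 had the same direction and 9 the opposite one. Among the 137 pairs, 54 antisense RNAs and 88 partners were called, against 59.4% of all genes. EGFR-AS1 and TAPT1-AS1, higher in HSC-1 like their partners, passed the level filter only with the HSC-1 arrays. The filter therefore favoured that direction, and such members were not taken out of these counts or of the correlations below. The 9 opposite pairs were those of AFAP1, ALOX12, ARRDC3, GAS6, GNAS, HMGN3, MYLK, SH3PXD2A and UBAC2, named after their values were seen. ALOX12-AS1, for one, was higher in HSC-1 by 0.85 ± 0.13 log2 and ALOX12 lower by -1.74 ± 0.20. Over the 137 pairs, 91 shared the sign (66.4%), with a Pearson correlation of 0.28 (Spearman 0.39), and 0.33 without the 2 farthest antisense RNAs.

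Position was read from RefSeq start sites. For 154 members both starts were in the table, and every one of these pairs lay on opposite strands. In 60 the starts were within 1000 bases, in 86 they were farther apart with overlapping genes, and in 8 farther apart with no overlap. Pairs are called head to head from here on by strand and this distance alone. Whether they are read away from each other was not checked. The HSC-1 calls were spread over the arrangements: 4 rose among the head-to-head RNAs, 7 rose and 3 fell among the overlapping ones, 2 rose among those without overlap, and 4 rose among the 66 that could not be placed. For the line difference in DMSO, antisense RNA and partner had a Pearson correlation of 0.50 over 33 head-to-head pairs and 0.16 over 54 overlapping pairs. Spearman correlations were closer, at 0.47 and 0.27. Without the 2 farthest antisense RNAs of each set the Pearson values were 0.42 and 0.18.

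The gene that starts head to head is not always the one in the name. Of 177 members with a start window, 90 had a protein coding start on the other strand within 1000 bases, and in 59 of these it was the sense partner's. Of the 90 neighbours, 49 were tested. The line difference of antisense RNA and neighbour correlated at 0.66 (Spearman 0.54) over these 49, and at 0.51 without the 2 farthest antisense RNAs. Over the 49, 20 antisense RNAs were called, and 14 neighbours were called higher and 19 lower. Of all genes, 29.2% were called higher and 30.2% lower, so joint calls arise without any link. Whether the count of joint calls exceeds what such shares give was not tested. Both were called in 14 pairs, 13 of them in the same direction, UBAC2-AS1 and UBAC2 being the exception. The 13 include CDKN2B-AS1 with CDKN2A, in which the antisense RNA had to be higher in HSC-1. The pairs of ZNF407-AS1 and ZNF407 (-1.01 and -0.56 log2), CD27-AS1 and TAPBPL (-0.86 and -1.33) and WAC-AS1 and WAC (-0.79 and -0.57) were lower in HSC-1 on both strands. For everolimus in HSC-1 the correlation over the 49 was 0.44, and 0.33 without the 2 farthest antisense RNAs, and in A431 it was -0.10. Both were called in 2 pairs in HSC-1, RNF217-AS1 with RNF217 and CBR3-AS1 with DOP1B, which rose by 0.26 ± 0.08 log2 (adjusted p = 0.0369).

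**Figure D4:**
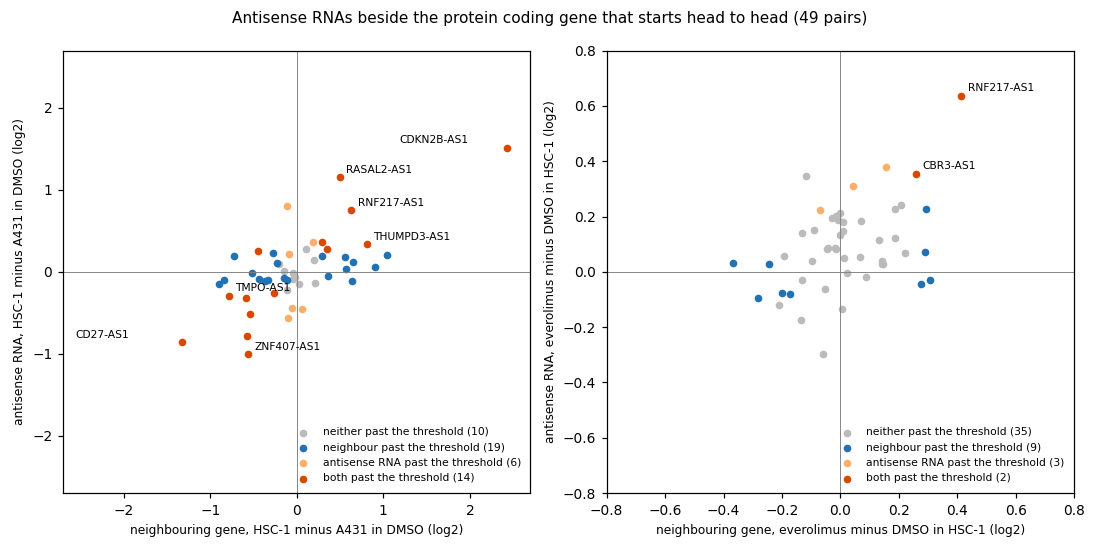
Log2 differences of 49 antisense RNAs (vertical axes) against those of the protein coding gene that starts within 1000 bases on the other strand (horizontal axes). The left panel is HSC-1 minus A431 in DMSO and the right panel everolimus minus DMSO in HSC-1; each point is a pair, coloured by which passed an adjusted p of 0.05. Of the 14 pairs with both called on the left, 13 lie in the lower left or upper right quadrant, as do both such pairs on the right.

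The start windows of antisense RNAs were rich in G and C, with a median of 64.3% over 177 windows against 58.3% over 27305 RefSeq windows of the same 300 bases. Among the 17 that rose in HSC-1, 15 had a window, with a median of 63.3%. Motif letters were searched on both strands. The GC box was in 10 of the 15 (66.7%), in 52.5% of the 177 and in 44.6% of all windows. The E-box CACGTG, bound by MYC and TFEB among others, was in 2 of the 15, ALOX12-AS1 and NUTM2A-AS1, in 9.60% of the 177 and in 7.43% of all. The ETS core was in 1 of the 15, CCDC18-AS1, in 5.08% and in 4.44%. The CCAAT box was in 5 of the 15, in 32.8% and in 35.7%, and the TATA box in 1, in 6.21% and in 12% of all windows. A FOXO core (GTAAACA), a cyclic AMP element (TGACGTCA), the NRF1 palindrome and a start of C followed by 4 pyrimidines, as in terminal oligopyrimidine messages, were in 0 of the 15, and in 3.41%, 1.98%, 1.36% and 4.04% of all windows.

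Other noncoding classes and the genes that shorten or clear such RNAs were read from the same fit, in which 7.34% of all genes rose and 11.3% fell in HSC-1, and 2.39% and 4.33% in A431. In HSC-1, 14 of 156 LINC genes rose and 5 fell, 7 of 65 divergent transcripts (-DT) rose and 2 fell, 2 of 9 small nucleolar RNA hosts (SNHG) rose and 1 fell, and 1 of 18 intronic or overlapping transcripts rose and 2 fell. In A431 these classes had 4, 1, 1 and 2 calls. Of 18 tested genes of the exosome and nuclear decay, 5 fell (27.8%) and 1 rose in HSC-1. Those that fell were EXOSC4 (-0.27 ± 0.09 log2, adjusted p = 0.0427), EXOSC2 (-0.24 ± 0.06, 0.00559), EXOSC8, EXOSC9 and EXOSC10, while EXOSC5 rose (0.19 ± 0.05, 0.0148). In A431 TENT4A, a noncanonical poly(A) polymerase gene, rose (0.23 ± 0.06 log2, adjusted p = 0.0186) and the other 17 did not pass. Of 13 genes of Integrator and early termination, INTS5 (-0.43 ± 0.09) and INTS7 (-0.27 ± 0.06) fell and INTS1 rose (0.22 ± 0.06) in HSC-1. Of 6 genes of nonsense-mediated and cytoplasmic decay, XRN1, the main cytoplasmic exonuclease, rose (0.24 ± 0.05) and EDC4, a decapping enhancer, fell (-0.24 ± 0.06). Of 7 genes of double-stranded RNA sensing and editing, RIGI (-0.37 ± 0.09) and DHX9 (-0.18 ± 0.04) fell in HSC-1. The last 3 lists had 0 calls in A431 in the limma fit, with 2, 0 and 1 genes at an unadjusted p under 0.05, and the part of these changes in the antisense results was not tested.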

How the data were processed

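RNA abundance was measured on 12 Affymetrix arrays from 4 groups of 3. Per the submitters' processing notes, the deposited values, log2 per probe set, came from RMA, run in Affymetrix Expression Console. RMA puts arrays on a common distribution, so a shift in total RNA per cell would not show. Software versions, build and probe set level were not given in the sources used here. Per the labels' protocols, sense-strand cDNA was labelled with whole-transcript kits. Whether a probe set shares sequence with the opposite strand's exons was not examined. Of 53617 probe sets, 16098 had 1 gene symbol, giving 14884 genes named through the RefSeq gene table of GRCh38.p14, which also told whether genes overlap and of which no gene coordinates are printed. Each gene took its probe set with the highest mean, and 10613 genes above their array's median on at least 3 of 12 arrays were tested.

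A mean for each group was fitted by limma 3.58.1 (lmFit, R 4.3.3). Moderated variances came from eBayes with an intensity trend on 8 residual degrees of freedom. P-values were adjusted by Benjamini-Hochberg over 10613 genes, with a threshold of 0.05. The fit was tested on simulated data. The table held no detection flags. Precision is limited by how many arrays there were. Promoter windows and positions came from the RefSeq table of 300-base windows. Correlations used scipy 1.17.1. Same-numbered arrays of a line had deviations that correlated from -0.155 to 0.0181. The fit therefore did not pair arrays by number, although so few correlations cannot exclude that they were handled in pairs. At most 57 of the values of any 2 arrays were identical.

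The members and lists were chosen with earlier results of these data known. The rule for named genes took every member with its differences. With 220 members the text names instead those called, their partners and the 4 with the highest means. It also names the extremes between the lines and those at the filter's edge, and gives the rest as counts and ranges. Up to 3 genes a list are named, except that every called exosome gene and every marker with a named probe set is given. Some genes named outside these groups are said to be chosen after their values were seen, and others are not. Alternatives were a replicate block, other level filters, other variance priors, array weights, other scalings, fits to the 6 arrays compared, averaged probe sets, and leaving out each array.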

Additional observations from a re-analysis of the deposited data

Results flagged for a closer look

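The effect of everolimus differed between HSC-1 and A431 for 7 antisense RNAs and 1 sense partner, by limma's test of the response in HSC-1 less that in A431. The difference was 0.64 log2 for CCDC18-AS1, 0.73 for FAM13A-AS1, 0.53 for GABPB1-AS1, 0.59 for MYO16-AS1, 0.45 for CBR3-AS1, 0.45 for MYLK-AS1 and -0.45 for PCNA-AS1. For SH3PXD2A, the partner of the antisense RNA that fell in A431, it was 0.47 log2. The calls of CBR3-AS1 and MYLK-AS1 were lost in 12 and 11 of 21 alternatives, and those of the other 6 in 0.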

How the results depend on the processing

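Of 52 single-gene calls, 0 changed direction in any alternative run. In many runs the direction could not change, because a replicate block, another level filter or another variance prior left the estimate as it was. So did the 6 arrays alone, and leaving out an array of a group outside the comparison. Among the 20 antisense calls in HSC-1, 6 held in every alternative (CCDC18-AS1, FAM13A-AS1, GABPB1-AS1, MYO16-AS1, PSMA3-AS1 and TAPT1-AS1), as did 5 of 7 in the difference between lines. The count of antisense RNAs called in HSC-1 ran from 9 to 20 with single arrays left out, against 20, that in A431 from 0 to 1, against 1, and the count of all genes called in A431 from 456 to 836, against 714. Tested partners called ran from 3 to 10 in A431, against 7, and from 11 to 20 in the difference between lines, against 18. Without the intensity trend, 438 genes and 4 partners were called in A431. Over all alternatives the median of the antisense RNAs stayed above 0 in HSC-1 (0.03 to 0.07 log2), where that of all genes stayed below 0 (-0.03 to -0.02). Of the partners called in A431, 42.9% (3 of 7) were higher, and 28.6% (2 of 7) with arrays centred on their medians. Of those called in the difference, 44.4% (8 higher and 10 lower) were higher, and 34.8% (8 and 15) with quantile normalization repeated. With 60th percentiles as the filter 149 antisense RNAs remained to be tested, and 479 with none. The replicate block gave 1, 17, 5 and 84 antisense calls in A431, HSC-1, their difference and between the lines, against 1, 20, 7 and 84, and 621 and 1845 genes in A431 and HSC-1, against 714 and 1977. Alternatives were not run for the decay and marker lists or for neighbours that are no partner. Antisense probe sets were dim and carried larger errors, with a median SE of 0.119 against 0.0937 over all genes.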
